A study of Mus musculus with 48 samples.

Results

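The genes described here carry out DNA replication and cell division: 40 listed genes that run from the licensing of replication origins to the final separation of daughter cells. They were measured by microarray in tissue of the squamocolumnar junction (SCJ) and cardia, where the oesophagus meets the stomach, in 48 mouse samples of 16 groups with 3 arrays each. Each gene was read from its brightest probe set annotated to a single gene symbol, and 38 of the 40 had one, out of 22180 symbols. Ccnb1, a B-type cyclin that partners Cdk1 at mitotic entry, had no entry under that symbol. Ccne2, an E-type cyclin, was annotated only in an entry shared with another symbol, so neither was measured here. All 38 genes passed the filter on dim probe sets (signal above the array's own median on at least 3 arrays), as did 15242 genes in all, and each p-value was adjusted over those 15242.

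The study asked how diet, Notch signalling, the cytokine IL-8 and FXR, a receptor for bile acids, bear on a mouse model of Barrett oesophagus. In that model (pl2), IL1B is overexpressed under a viral promoter that is active in squamous epithelium, so every mouse called transgenic below makes the cytokine from the same tissue. Chow-fed WT and pl2 mice of 12 months were kept at the facility labelled MRI, and further WT and pl2 mice of 12 months at Freising, on chow or on a high fat diet (HFD). The MRI facility also held FXR mice without the transgene and pl2_FXR mice at 12 months, and pl2_IL8 mice at 9 and at 12 months, all on chow. Whether FXR mice had lost or gained the receptor is not stated in the labels. The 6 Notch groups all carried the pl2 transgene and lived on chow at the MRI facility: pL2_Lgr5_Notch1fl_fl (9 to 11 months), pL2_Lgr5_Notch2fl_fl and pL2_Lgr5_Notch2IC_LacZ (10 to 11 months), pL2_Dclk_Notch1fl_fl (11 to 13 months), pL2_Dclk_Notch2fl_fl (10 to 12 months) and pL2_Dclk_Notch2IC_LacZ (11 to 12 months). They received tamoxifen at 3 to 6 months to switch the Notch allele in stem cells that express Lgr5 or in tuft cells that express Dclk1, both a small fraction of whole tissue, and the labels list no tamoxifen for their pl2 comparison group. Sample titles fall into series that follow the experiment. The MRI WT, FXR, pl2 and pl2_FXR groups share a series, and all Freising groups share another. The pl2_IL8 groups have a series of their own, as do the Notch groups. In their comparisons with MRI pl2 the series and the genotype cannot be told apart. Nor can the series and the facility between MRI and Freising mice. The labels do not say whether arrays of a group came from separate litters or how many mice each holds, so p-values measure the spread between these samples.

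A dividing cell first loads the MCM helicase onto replication origins with the help of Cdc6, then fires those origins with Cdc45 while ribonucleotide reductase and thymidylate synthase supply nucleotides. Cyclin-bound Cdk1 then drives mitosis, in which the Aurora, Plk1, Bub1 and Ttk kinases attach chromosomes to the spindle, and kinesins, Prc1 and the chromosomal passenger complex complete division. Most of these genes are transcribed periodically: E2F factors act at S phase genes, while Foxm1, B-Myb and the DREAM complex act on late genes through the cell cycle homology region (CHR). Promoters of late genes often hold CCAAT boxes as well, which are a separate element. In normal stratified epithelium division is restricted to the basal and parabasal layers, and in gastric glands to the isthmus.

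Promoter sequence is shown for 6 of the genes whose values are described below, 4 that act in mitosis, the cyclin gene Ccne1 and the replication gene Mcm5, since these sets of genes are known to be driven through different promoter elements. RefSeq windows from 250 bases before to 50 after the transcript start (build GRCm38.p6) were at hand for 33 of the 40 genes, of which Mcm7 and Prc1 had 2 each; Aurkb, Ccna2, Ccne2, Foxm1, Kif20a, Mcm4 and Tpx2 had none. Both strands were searched for TTTGAA (a CHR), its variant TTCGAA (its own reverse complement), CCAAT, and the E2F-type sequences TTTCGCGC, TTTGGCGC and TTTCCCGC; no other form of these elements was searched. The lines below give 200 bases, from 170 before to 30 after the start, 5′ to 3′ on the gene's strand, with matches of these motifs on either strand in capitals. Ttk lies at chr9:83834519-83834718 on the plus strand, Kif23 at chr9:61946770-61946969 on the minus strand, Prc1 at chr7:80294281-80294480 on the plus strand (the first of its windows), Bub1 at chr2:127831830-127832029 on the minus strand, Ccne1 at chr7:38107461-38107660 on the minus strand and Mcm5 at chr8:75109339-75109538 on the plus strand.
Ttk: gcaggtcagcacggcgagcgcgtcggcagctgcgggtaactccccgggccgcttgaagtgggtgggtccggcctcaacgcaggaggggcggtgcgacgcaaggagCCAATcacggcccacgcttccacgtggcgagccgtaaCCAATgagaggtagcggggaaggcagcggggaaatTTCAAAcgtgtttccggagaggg
Kif23: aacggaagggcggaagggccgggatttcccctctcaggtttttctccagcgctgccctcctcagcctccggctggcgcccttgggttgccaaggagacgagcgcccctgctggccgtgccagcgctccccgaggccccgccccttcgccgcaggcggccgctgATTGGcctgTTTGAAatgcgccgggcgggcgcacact
Prc1: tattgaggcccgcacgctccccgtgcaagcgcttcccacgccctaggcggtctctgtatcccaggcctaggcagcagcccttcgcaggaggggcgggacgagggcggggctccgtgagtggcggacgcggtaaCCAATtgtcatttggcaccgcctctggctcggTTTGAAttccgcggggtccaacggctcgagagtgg
Bub1: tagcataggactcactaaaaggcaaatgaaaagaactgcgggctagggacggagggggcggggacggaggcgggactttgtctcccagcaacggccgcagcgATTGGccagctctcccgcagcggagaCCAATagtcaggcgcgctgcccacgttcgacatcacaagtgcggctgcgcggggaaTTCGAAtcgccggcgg
Ccne1: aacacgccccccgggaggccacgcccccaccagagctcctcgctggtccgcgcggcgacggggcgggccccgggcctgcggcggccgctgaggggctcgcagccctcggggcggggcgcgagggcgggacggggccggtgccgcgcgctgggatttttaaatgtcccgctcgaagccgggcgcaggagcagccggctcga
Mcm5: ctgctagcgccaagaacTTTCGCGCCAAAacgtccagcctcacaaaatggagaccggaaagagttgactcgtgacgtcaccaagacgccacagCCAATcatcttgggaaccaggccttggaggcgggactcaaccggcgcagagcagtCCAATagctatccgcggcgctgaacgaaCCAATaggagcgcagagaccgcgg
Ttk, Kif23 and Prc1, which act in mitosis, hold TTTGAA close to the start, and Bub1, another mitotic gene, holds TTCGAA there. Mcm5, a helicase subunit, holds TTTCGCGC overlapping TTTGGCGC and no CHR sequence, and the cyclin gene Ccne1 has no match in these bases.

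Over the 33 genes, 18 windows (54.5%) held TTTGAA, against 20.2% of the windows of 27025 symbols. The share was 12 of 16 (75%) for genes of the mitotic kinase and spindle groups together with Cdc20, Ube2c and Cdca3, and 2 of 8 for licensing and fork genes. CCAAT was found in 28 of 33 (84.8%), against 41.1% of all windows, at a like share in both groups of genes (87.5% each). Any of the E2F-type sequences was found in 6 of 33 (18.2%), against 2.1% of all windows; 5 of the 8 licensing and fork genes held one and none of the 16 mitotic genes did. A match says only that these letters are present.

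The tissue was mixed, as its source implies: markers of squamous suprabasal cells (12 genes) and of parietal cells (5 genes) were both bright, with array means of 6.95 to 11.02 and 7.71 to 10.75 on the log2 scale in the WT, FXR, pl2 and pl2_FXR groups. In 9 of the 48 arrays the mean of 8 hepatocyte or of 8 intestinal markers was above 8, among them 1 array each of MRI WT, MRI pl2 and pl2_FXR, and counts of called genes that rest on those arrays are also given without them. The MRI pl2 array among them, array 3, passed this limit only narrowly, with a hepatocyte mean that rounds to 8.0. On MRI pl2 array 1 that mean was 7.14. Smooth muscle markers were lower in the MRI pl2 arrays (means of 7.83 to 9.88) than in the MRI WT arrays (10.95 to 11.47). Xist was above 8 on all 3 MRI WT arrays and on 1 of 3 MRI pl2 arrays, on all FXR and pl2_FXR arrays and on none from Freising. It was above 8 on all 3 arrays of 9-month pl2_IL8 and on 1 of 3 at 12 months. All 3 arrays of pL2_Dclk_Notch1fl_fl and of pL2_Dclk_Notch2fl_fl were above 8, and 2 of 3 in each other Notch group. Nr1h4, which encodes FXR, was not lower in the FXR group (mean 4.93) than in MRI WT (4.52); these levels lie near the array medians (4.03 to 4.27), and which part of the gene was altered is not given in the sources used here.

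Across the 16 groups the cell cycle genes were lowest where the IL1B transgene was absent. Of the group means of each gene, the lowest belonged to MRI WT for 17 of the 38 genes, to FXR for 9 and to Freising HFD WT for 9. The highest belonged to pL2_Dclk_Notch2IC_LacZ for 19 genes, to pL2_Lgr5_Notch2IC_LacZ for 6 and to 9-month pl2_IL8 for 5. In Freising chow WT 33 of the 38 lay below their own mean over the 48 arrays, in MRI WT 36, in FXR 37 and in HFD WT all 38. Among the transgenic groups MRI pl2 (26 of 38) and pL2_Lgr5_Notch1fl_fl (25) lay low, and the other 10 had between 1 and 11 below. Group means of a gene spanned 1.02 on the log2 scale at the median gene, from 0.59 for Tyms (thymidylate synthase) to 1.55 for Kif23 (a kinesin of the central spindle), while the SD within groups was 0.375 at the median gene. By limma's F test over all groups, 17 of the 38 genes differed between groups at an adjusted p below 0.05 (called, below), where 52.3% of all genes did. Ccne1, the cyclin of the G1 to S transition, came first (adjusted p = 0.000997), followed by Kif23 (0.00452), Mcm5 (0.00489) and Ttk (0.00876), a spindle checkpoint kinase also called Mps1.

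**Figure D1:**
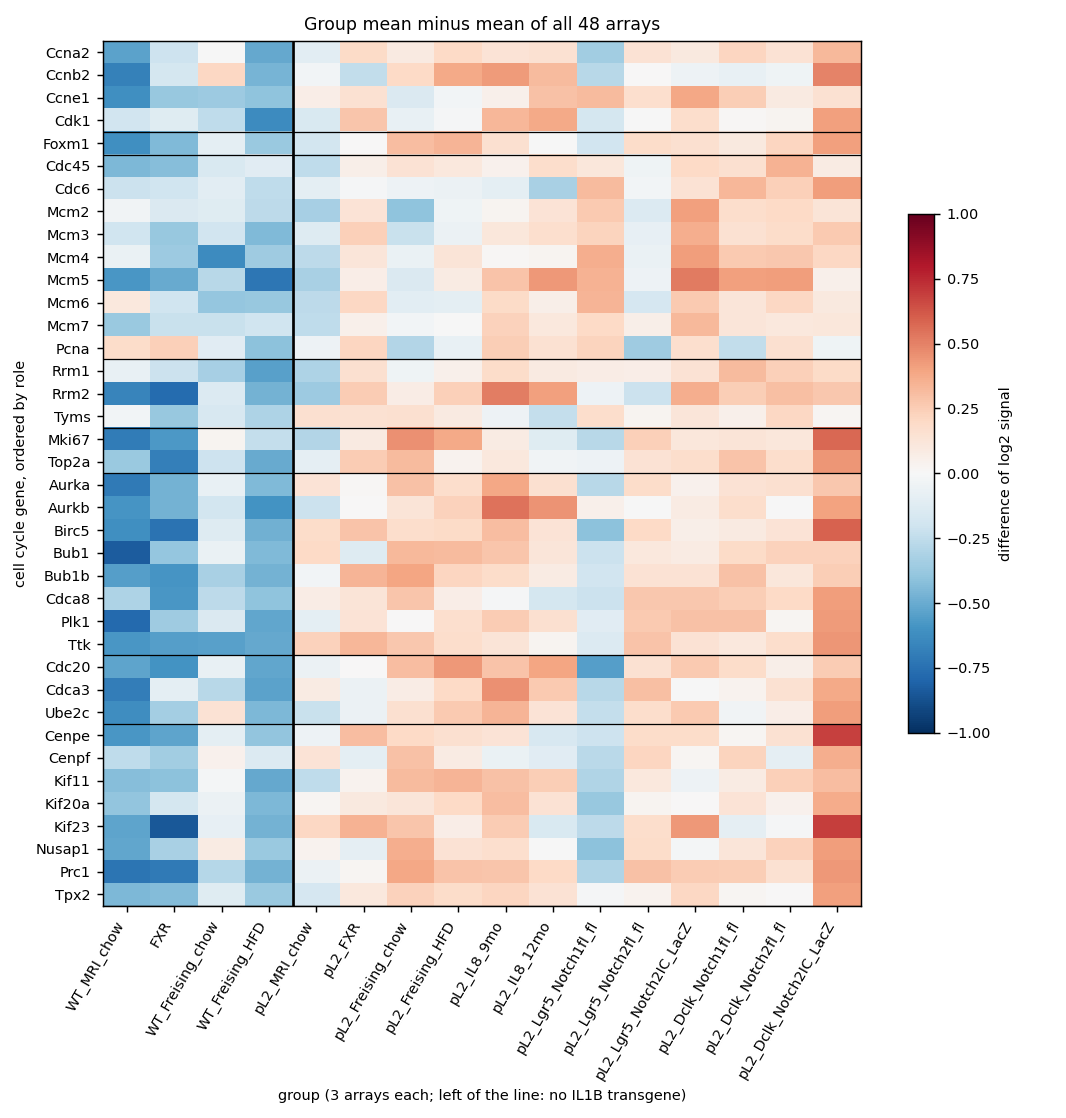
Group mean of each of 38 cell cycle genes (rows, ordered by role and separated by lines) minus that gene's mean over all 48 arrays, as a difference of log2 signal; columns are the 16 groups of 3 arrays, with the 4 groups without the IL1B transgene left of the thick line. Blue cells, below the gene's mean, number 33 to 38 of 38 in those 4 columns, and pL2_Dclk_Notch2IC_LacZ has 1.

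The mean over the 38 genes showed how single arrays sat. It was 5.80, 6.32 and 6.03 in MRI WT and 6.34, 6.31 and 6.57 in MRI pl2, so 1 WT array lay within the pl2 range. It was 6.23, 6.37 and 6.40 in Freising chow WT against 6.25, 6.88 and 6.73 in Freising chow pl2, and 5.83, 5.91 and 6.47 in HFD WT against 6.30, 7.10 and 6.51 in HFD pl2. In FXR it was 6.71, 5.83 and 5.74, against 6.22, 6.44 and 7.14 in pl2_FXR. The 6 lowest of all 48 arrays were without the transgene, and the highest non-transgenic array, FXR array 1, ranked 35. The 3 highest arrays were pl2_FXR array 3, HFD pl2 array 2 and 9-month pl2_IL8 array 2. In these samples a smaller share of dividing cells and less RNA of these genes per cell cannot be told apart.

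**Figure D2:**
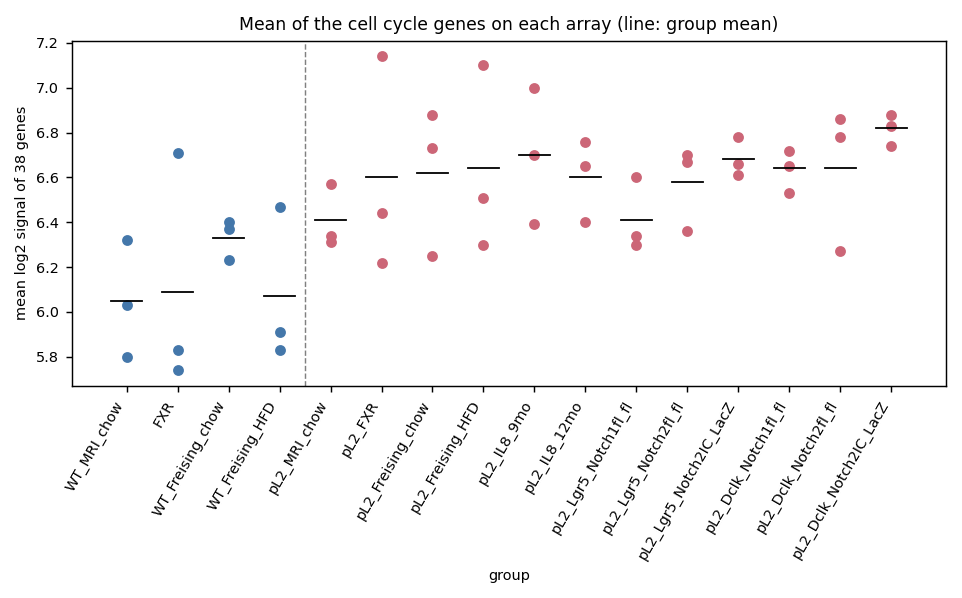
Mean log2 signal of the 38 cell cycle genes on each array (points) with the mean of each group of 3 (lines); blue marks groups without the IL1B transgene and red those with it. The transgenic points run from 6.22 to 7.14 and 6 of the 12 non-transgenic points lie below that range.

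The first comparison asked what the IL1B transgene changed in mice of one facility and diet. In MRI chow mice 4 of the 38 genes rose with the transgene and none fell: Ccne1, Bub1, Ttk and Aurka. These make 10.5% of the genes, where 23% of all genes tested were called, 10.3% of them higher, so the share of genes called higher was that of the background. The median difference over the 38 genes was 0.395 on the log2 scale, against 0.007 over all genes tested, and 33 of 38 were above 0. Without the MRI WT and MRI pl2 arrays high in liver transcripts the median was 0.125, with 29 of 38 above 0.

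Ccne1 read 4.26, 4.15 and 4.63 in MRI WT and 4.83, 5.17 and 5.08 in MRI pl2. The groups did not overlap, and the difference was 0.68 ± 0.20 (SE, n = 3 per group; limma, adjusted p = 0.0129). Bub1, the checkpoint kinase that marks unattached kinetochores, read 4.36, 5.10 and 4.56 against 5.60, 5.47 and 6.05. Every pl2 array was above every WT array, by 1.04 ± 0.31 on average (limma, adjusted p = 0.0131). Ttk read 4.25, 4.93 and 4.44 against 5.33, 5.32 and 5.39, again without overlap, a difference of 0.81 ± 0.28 (limma, adjusted p = 0.0334). Aurka, the kinase of spindle poles, read 5.05, 5.78 and 5.30 against 5.98, 6.06 and 6.62 (0.84 ± 0.29; limma, adjusted p = 0.0343).

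These calls rested on single arrays. None of the 38 was called without WT array 1, whose hepatocyte mean was 9.09, and 1 was called without pl2 array 2 or pl2 array 3. Without both arrays high in liver transcripts none was called, with Ccne1 at 0.61 (limma, adjusted p = 0.122) and Bub1 at 0.71 (limma, adjusted p = 0.241). Of all 15242 genes tested 857 were then higher and 1128 lower. Beside them, all 8 smooth muscle markers, all 7 fibroblast and all 6 endothelial markers fell (medians -2.53, -1.74 and -1.86), 6 of 8 neutrophil markers rose, and the arrays differed in Xist as given above. Endothelial means on MRI pl2 arrays 2 and 3 were 5.17 and 5.41, lower than on any other array of the series, against 6.83 on MRI pl2 array 1. The part of any of these in the difference was not tested.

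The same contrast was made on chow at the other facility. At Freising no cell cycle gene was called on chow, where 1.64% of all genes were; 4 of the 38 had an unadjusted p below 0.05 and the smallest adjusted p was 0.136. The median was 0.30 against -0.025 over all genes. Ttk read 4.71, 4.56 and 4.47 in WT and 5.05, 5.75 and 5.37 in pl2, a difference of 0.81 ± 0.28, the same size as at the MRI facility, and the groups did not overlap. Bub1b (BubR1), a part of the mitotic checkpoint complex, read 5.48, 5.78 and 5.91 against 6.01, 6.64 and 6.69, also without overlap (0.72 ± 0.31; limma, adjusted p = 0.225). The difference between the facilities was called for none of the 38 genes (1.76% of all genes; no unadjusted p below 0.05), so the smaller count at Freising does not show a smaller effect.

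Averaged over both chow comparisons, 8 of the 38 genes rose and none fell (21.1%), where 21.9% of all genes were called and 9.05% were higher. Ttk led at 0.81 ± 0.20 (limma, adjusted p = 0.00333), followed by Bub1 (0.72 ± 0.22, adjusted p = 0.0162) and Ccne1 (0.44 ± 0.14, adjusted p = 0.0218). Aurka (0.60), Bub1b (0.62), Prc1 (0.67), Cdca8 (0.46) and Cdca3 (0.56) also rose, with limma adjusted p between 0.0335 and 0.0487. Prc1 bundles the microtubules of the central spindle, Cdca8 (borealin) is a subunit of the passenger complex and Cdca3 triggers mitotic entry. Of these 8 genes, 5 were mitotic kinases, checkpoint genes or passenger subunits, among the 8 measured of that role, and none was a licensing or fork gene, of which 9 were measured.

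Prc1 read 5.50, 5.72 and 5.95 in MRI WT and 6.39, 6.32 and 6.47 in MRI pl2. At Freising it read 6.16, 5.88 and 6.47 against 6.48, 7.01 and 7.03, so the groups did not overlap at either place, though the highest WT and the lowest pl2 array at Freising were nearly level. The genes used as stains and labels of dividing cells were not called: Mki67 (the Ki-67 antigen) differed by 0.41 ± 0.24 (95% interval -0.08 to 0.91; limma, adjusted p = 0.237) and Top2a (topoisomerase II alpha) by 0.40 ± 0.23 (limma, adjusted p = 0.218). Cdk1 differed by 0.11 (-0.32 to 0.54) and Mcm2 by -0.29 (-0.64 to 0.07), neither called. The count of 8 went down to 1 without MRI WT array 1 or Freising pl2 array 2, and to 2 without MRI pl2 array 3 or Freising pl2 array 3. It was 3 without Freising WT array 1 or 2 and 5 without MRI WT array 3 or MRI pl2 array 1 or 2. Without the arrays high in liver transcripts 1 gene, Ttk, was called, where 1148 of all 15242 genes tested were higher and 1652 lower. The median of the 38 genes was then 0.179, with 32 of 38 above 0. Beside these genes all 8 smooth muscle markers fell in the chow mean (median -2.06) and 4 of 5 T cell, 4 of 8 neutrophil and 5 of 12 squamous suprabasal markers rose. At Freising alone 3 of 5 T cell, 3 of 8 neutrophil and 4 of 12 suprabasal markers rose, none of the 8 smooth muscle markers was called (median -1.26), and the part of these cell types in the difference was not tested.

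The contrast was repeated under high fat diet. All 38 genes were above 0 in HFD pl2 against HFD WT, with a median of 0.611, against -0.007 over all genes tested, yet none was called, where 1.16% of all genes were. The unadjusted p was below 0.05 for 18 genes. Cdc20, the activator of the anaphase-promoting complex, read 5.98, 6.00 and 6.82 in HFD WT and 6.77, 7.81 and 7.09 in HFD pl2. The groups overlapped by 1 array each, and the difference was 0.96 ± 0.31 (limma, adjusted p = 0.112). Kif11, the kinesin that separates spindle poles, read 5.72, 5.46 and 6.56 against 6.29, 7.25 and 6.74 (0.85; limma, adjusted p = 0.15). Without HFD pl2 array 1, the lowest of that group, 6 of the 38 were called, and with arrays weighted by their estimated quality 20 were. No share of all genes called is given beside either count, so neither can be set against a background. HFD pl2 array 2 was the highest of its group for 36 of the 38 genes and had a neutrophil mean of 8.39, against 6.24 and 6.49 on the other arrays. Beside the cell cycle genes 3 of 8 neutrophil, 2 of 5 T cell and 1 of 4 B cell markers rose (medians 1.64, 0.904 and 0.871), all 7 macrophage markers were above 0 with none called, and none of the 8 smooth muscle markers was called (median -0.458). The part of these cell types in the difference was not tested.

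The FXR line gave the fourth pair of transgenic and non-transgenic groups. In pl2_FXR against FXR mice 5 of 38 genes rose (13.2%), where 10.1% of all genes were called and 5.15% were higher, and the median was 0.485, against -0.032. Kif23 read 6.39, 5.25 and 5.19 in FXR and 6.34, 6.87 and 7.22 in pl2_FXR, a difference of 1.20 ± 0.30 (limma, adjusted p = 0.00821). Birc5 (survivin, of the passenger complex) read 5.10, 3.97 and 4.04 against 4.85, 5.21 and 6.12 (1.03; limma, adjusted p = 0.0464). In both genes FXR array 1 lay above pl2_FXR array 1. Ttk (0.89), Bub1b (0.93) and Cdca8 (0.72) rose as well, with limma adjusted p of 0.0369, 0.0455 and 0.0496. The count was 10 without FXR array 1 or pl2_FXR array 1, and 0 without FXR array 2, FXR array 3 or pl2_FXR array 3; pl2_FXR array 3 is the one with a hepatocyte mean of 8.68. Without that array the median of the 38 genes was 0.162. The count was 2 without pl2_FXR array 2 and 0 when the compared groups were fitted alone. No share of all genes called is given beside these counts, so they cannot be set against a background. Squamous suprabasal markers moved with this comparison: 7 of 12 rose, and their mean was 6.95 to 8.06 in FXR and 9.93 to 10.58 in pl2_FXR. Neutrophil markers were apart as well (means of 4.23 to 4.54 in FXR and 7.05 to 7.61 in pl2_FXR; 4 of 8 rose), as were T cell markers (4.02 to 4.37 and 5.04 to 5.60; 3 of 5 rose). Smooth muscle markers had a median of -0.85 with none called, and the part of any of these in the difference was not tested.

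The transgene effect within the FXR background differed from that in MRI WT for none of the 38 genes (0.138% of all genes were called). One gene, Mcm6, had an unadjusted p below 0.05: its difference was 0.41 in the FXR background and -0.37 in WT, apart by 0.78 (95% interval 0.08 to 1.47; limma, adjusted p = 0.309). Bub1 was apart in the other direction, by -0.78 (-1.66 to 0.10).

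The 4 comparisons above (MRI chow, Freising chow, Freising HFD and the FXR line) share no array, and 31 of the 38 genes (81.6%) were above 0 in all 4, against 19.2% of all genes tested. Their mean, 12 transgenic against 12 non-transgenic arrays, was added after the values had been seen. By it 25 of 38 genes rose and none fell (65.8%), where 35.6% of all genes were called and 16.1% were higher. The median was 0.44, against -0.008 over all genes. Leaving out 1 array gave 19 to 30 genes, with the fewest without pl2_FXR array 3. Leaving out every array with high liver or gut markers gave 12, with a median of 0.305. No share of all genes is given beside the counts without arrays.

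By role, the mitotic kinases, checkpoint and passenger genes rose in 8 of 8 cases with a median of 0.59. Ttk was at 0.80 ± 0.14 (limma, adjusted p = 4.1e-05), with 0.81, 0.81, 0.68 and 0.89 in the MRI, Freising chow, HFD and FXR backgrounds. Bub1b was at 0.72 ± 0.15, with 0.52, 0.72, 0.69 and 0.93. Bub1 (0.61), Birc5 (0.70), Aurka (0.58), Cdca8 (0.53), Plk1 (0.50) and Aurkb (0.50) made up the group; Plk1 is the kinase of centrosome maturation and Aurkb the catalytic subunit of the passenger complex. The spindle, kinetochore and cytokinesis genes rose in 7 of 8 cases with a median of 0.44: Kif23 (0.71), Prc1 (0.71), Cenpe (0.56), Kif11 (0.45), Tpx2 (0.43), Nusap1 (0.40) and Kif20a (0.38), and Cenpf was at 0.28 (limma, adjusted p = 0.0991). Of the genes that act through ubiquitin-driven protein breakdown Cdc20 (0.60) and Cdca3 (0.47) rose, and Ube2c, the ubiquitin-conjugating enzyme of the anaphase-promoting complex, was at 0.35 (limma, adjusted p = 0.0693). Without the arrays high in liver transcripts 6 of 8, 3 of 8 and 1 of 3 genes of these roles were called, with medians of 0.466, 0.299 and 0.264. The calls then lost were those of Plk1 (0.31), Aurkb (0.30), Kif11 (0.31), Tpx2 (0.27), Nusap1 (0.29), Kif20a (0.23) and Cdca3 (0.26), with limma adjusted p between 0.146 and 0.271.

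Mki67 and Top2a both rose over the 4 backgrounds, by 0.53 ± 0.17 (limma, adjusted p = 0.0163) and 0.57 ± 0.16 (limma, adjusted p = 0.00622). Mki67 read 6.91, 7.84 and 7.45 in MRI WT and 7.80, 7.53 and 8.07 in MRI pl2, and 7.97, 8.13 and 8.28 against 8.10, 8.88 and 8.69 on Freising chow. Under HFD it read 7.44, 7.64 and 8.49 against 8.14, 8.79 and 8.49, and 8.58, 7.04 and 6.94 in FXR against 7.62, 8.12 and 8.83 in pl2_FXR. Its groups overlapped in each of the 4 backgrounds. Foxm1, the transcription factor of late cell cycle genes, rose by 0.50 ± 0.14 (limma, adjusted p = 0.00576). None of these calls held without the arrays high in liver transcripts, where Mki67 was at 0.35 (limma, adjusted p = 0.152), Top2a at 0.42 (0.0619) and Foxm1 at 0.39 (0.0569).

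Of the cyclins and Cdk1, Ccne1 rose (0.45 ± 0.10; limma, adjusted p = 0.000628), while Ccna2 (0.41), Ccnb2 (0.35) and Cdk1 (0.31) were not called. Cdk1 read 6.73, 7.39 and 7.02 in MRI WT and 7.08, 6.64 and 7.54 in MRI pl2, and its differences ran from 0.04 on MRI chow to 0.61 under HFD. Among the nucleotide genes Rrm2, the regulated small subunit of ribonucleotide reductase, rose by 0.56 and Tyms by 0.36, and Rrm1, the large subunit, was at 0.25 (limma, adjusted p = 0.116). Without the arrays high in liver transcripts Ccne1 (0.40) and Tyms (0.35) were still called, and Rrm2 was not (0.44; limma, adjusted p = 0.0914).

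The licensing and fork genes had the lowest median of the roles, 0.20, with 2 of 9 called: Mcm5 at 0.44 ± 0.15 (limma, adjusted p = 0.0211) and Cdc45 at 0.30 ± 0.10 (limma, adjusted p = 0.0173). Mcm2 was at -0.02 ± 0.12: it read 6.54, 6.86 and 6.44 in MRI WT against 6.20, 6.25 and 6.50 in MRI pl2, and 6.39, 6.73 and 6.46 against 5.96, 6.42 and 6.37 on Freising chow. In both chow backgrounds the pl2 arrays tended to the lower end and overlapped with WT, and its differences were -0.30, -0.28, 0.21 and 0.28 in the 4 backgrounds. Pcna, the sliding clamp of the fork, was at -0.03 ± 0.10, and Mcm4 (0.33), Mcm3 (0.26), Mcm7 (0.20), Mcm6 (0.15) and Cdc6 (0.14) were not called. Without the arrays high in liver transcripts none of the 9 was called, with Mcm5 at 0.32 (limma, adjusted p = 0.106), Cdc45 at 0.25 (0.0687) and a median of 0.124. The difference between the roles was not itself tested.

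**Figure D3:**
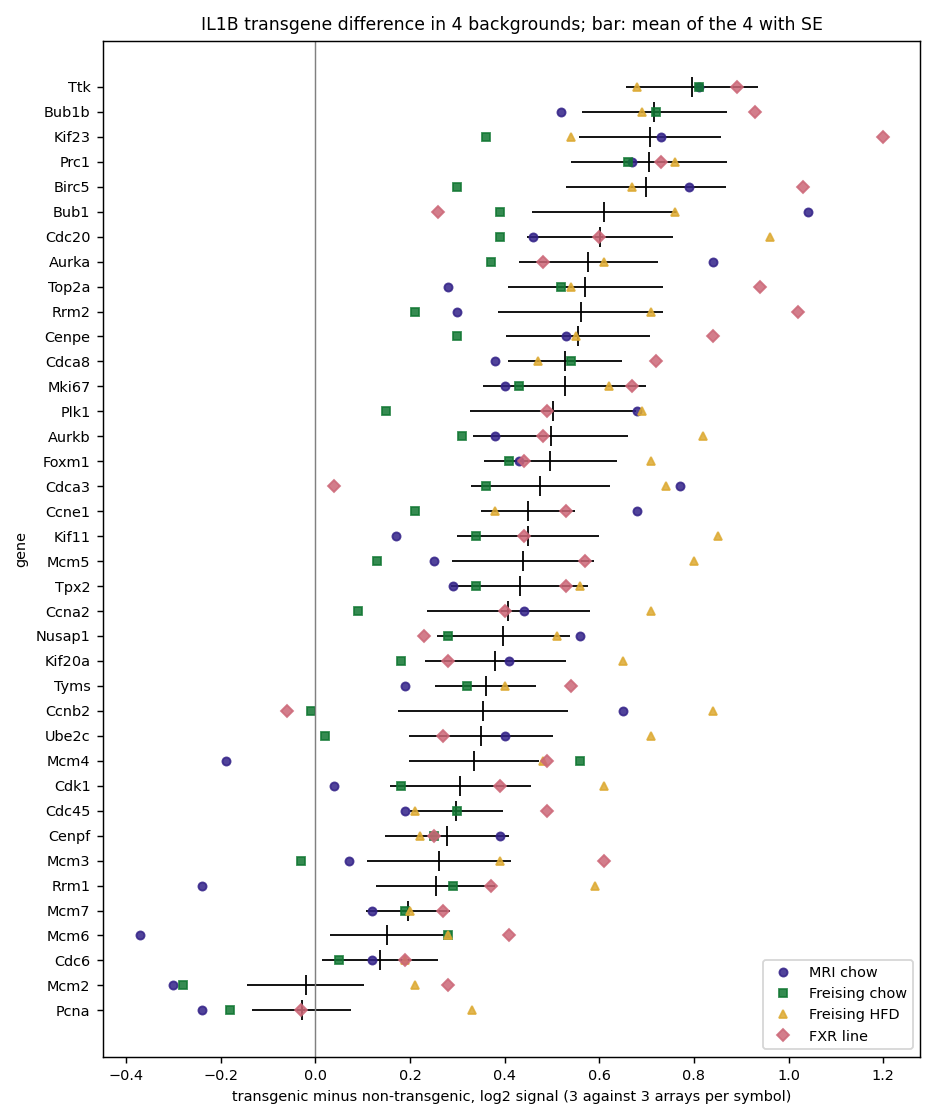
Difference of log2 signal between transgenic and non-transgenic groups (3 against 3 arrays per symbol) for each gene in 4 backgrounds that share no array, with the mean of the 4 (short vertical line) and its SE (horizontal line). Ttk has the highest mean at 0.80 with 4 symbols between 0.68 and 0.89, and Mcm2 and Pcna lie at the bottom with means of -0.02 and -0.03.

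**Figure D4:**
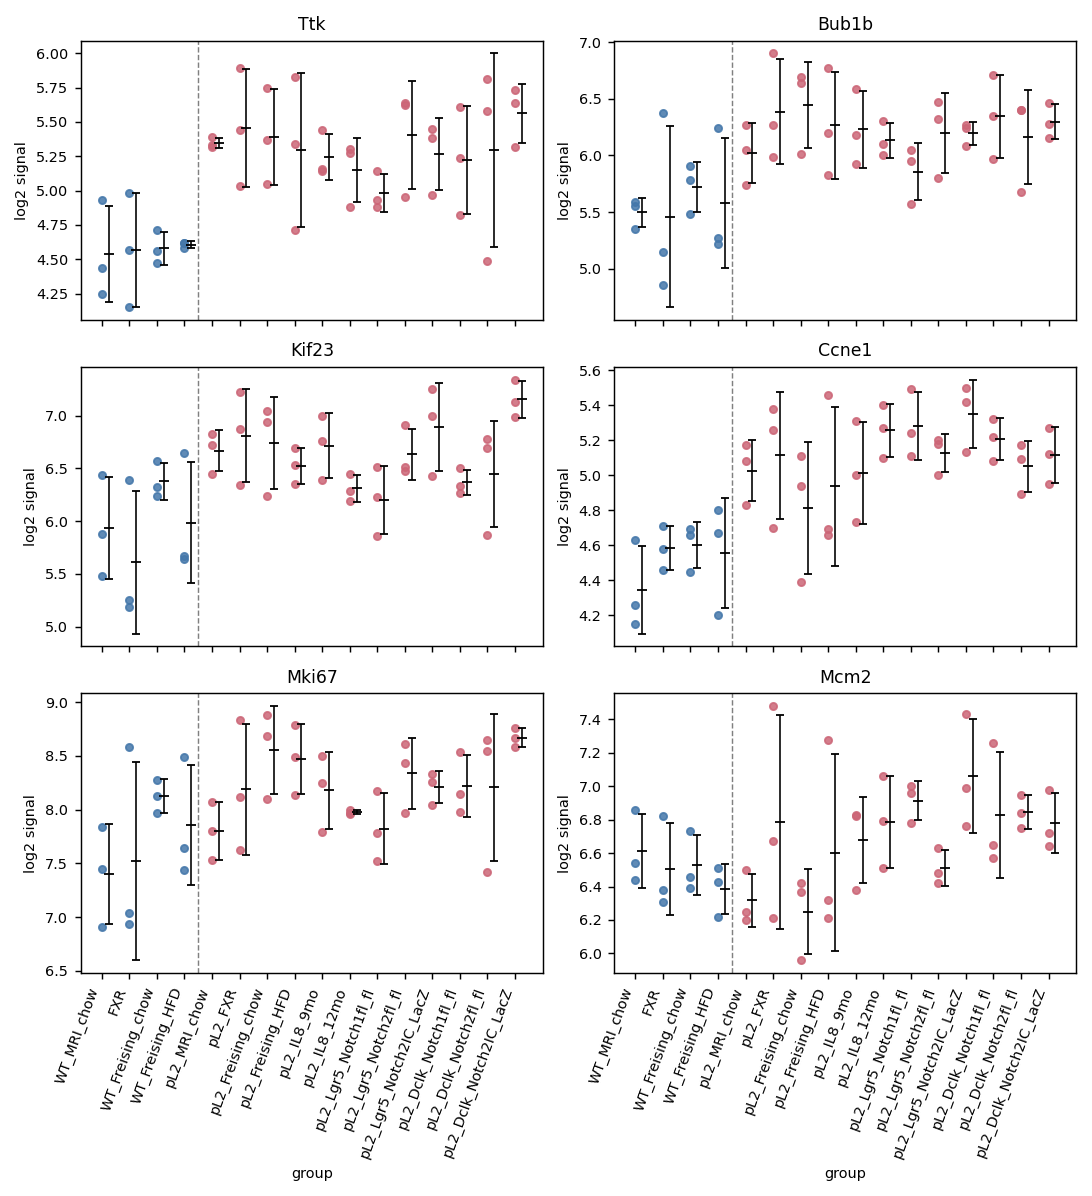
Log2 signal of 6 genes on each array (points) by group, with the group mean ± SD beside it; blue marks groups without the IL1B transgene, left of the dashed line, and red those with it. All 12 non-transgenic Ttk points lie between 4.15 and 4.98, and Mcm2 is as low in MRI and Freising chow pl2 as in any WT group.

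The effect of diet itself was tested within each genotype. Diet changed none of the 38 genes, either in pl2 mice (0% of all genes were called) or in WT mice (0.164%), and no gene had an unadjusted p below 0.05 in either. In pl2 the median was 0.02; the smallest p belonged to Mcm2 (0.35, 95% interval -0.15 to 0.85). In WT the median was -0.282, with 4 of 38 genes above 0, against 0.005 over all genes. Ube2c read 6.60, 6.79 and 6.90 in chow WT and 5.93, 5.91 and 6.67 in HFD WT, a difference of -0.59 (-1.20 to 0.03; limma, adjusted p = 1), and Ccnb2, a B-type cyclin, differed by -0.67 (-1.40 to 0.07). For both genes HFD WT array 3 lay within the chow range and the other two arrays below it. Mki67 differed by -0.27 in WT (-0.97 to 0.43) and by -0.08 in pl2 (-0.78 to 0.62). The diet effect differed between pl2 and WT for none of the 38 (0.0197% of all genes), with a median of 0.273. Pcna (0.51, -0.08 to 1.11) had the smallest p and Ccnb2 (0.85, -0.19 to 1.88) the next.

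Adding IL8 to the transgene at 12 months was compared with MRI pl2 of the same age, the arrays that also serve as controls of pl2_FXR and of every Notch group. None of the 38 genes was called (1.82% of all genes were) and 3 had an unadjusted p below 0.05. With array weights 11 were called, a count that has no share of all genes beside it. Mcm5 read 7.28, 6.77 and 6.93 in pl2 and 8.04, 7.59 and 7.62 in pl2_IL8, without overlap (0.76 ± 0.30; limma, adjusted p = 0.178). Rrm2 read 6.03, 6.11 and 6.26 against 7.06, 6.55 and 7.10, also without overlap (0.77 ± 0.35; limma, adjusted p = 0.252). Cdc45 differed by 0.44 (limma, adjusted p = 0.247) and Mki67 by 0.18 (95% interval -0.52 to 0.88). The median was 0.321 over the licensing and fork genes and -0.006 over the mitotic kinases, checkpoint and passenger genes. All 6 endothelial markers rose beside them. Their means were 6.83, 5.17 and 5.41 on the MRI pl2 arrays, and 7.53 to 7.73 in pl2_IL8. On MRI pl2 arrays 2 and 3 they were lower than on any other array of the series. A hepatocyte mean of 8.33 was found on pl2_IL8 array 1. From 9 to 12 months of pl2_IL8 no gene was called (0% of all genes) and none had an unadjusted p below 0.05, with a median of -0.101. The smallest p belonged to Kif23 (-0.40, -1.01 to 0.20) and then Ccne1 (0.25, -0.16 to 0.65). Xist was above 8 on 3 arrays at 9 months and on 1 at 12 months, and the part of this in the age comparison was not tested.

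Without the transgene, FXR against MRI WT, the control it shares with MRI pl2, gave no call among the 38 genes (2.12% of all genes), no unadjusted p below 0.05 and a median of 0.026. Cdca3 read 4.47, 4.89 and 5.34 in WT and 6.09, 5.18 and 5.20 in FXR (0.59, 95% interval -0.01 to 1.19; limma, adjusted p = 0.323), with overlap. Tyms differed by -0.36 (-0.79 to 0.08). The spread within FXR was wide: Mki67 was 8.58 on array 1 and 7.04 and 6.94 on the others, and array 1 was the highest of the 3 for 36 of the 38 genes. Squamous markers fell beside them in FXR (7 of 12 suprabasal and 4 of 8 basal). On the transgene, pl2_FXR against MRI pl2 gave no call either (0.0853% of all genes) and no unadjusted p below 0.05, with a median of 0.23. Mcm6 (0.46, -0.03 to 0.95) and Mcm2 (0.47, -0.03 to 0.97) had the smallest p. Without the arrays high in liver transcripts this median was -0.014, with 18 of 38 genes above 0. The median of FXR against MRI WT was then -0.098, with 14 of 38 above 0.

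The 3 Lgr5 groups were each compared with the same 3 MRI pl2 arrays, so their differences are not independent of each other, and none of the 38 genes was called in any. For pL2_Lgr5_Notch2IC_LacZ (0.138% of all genes were called), which carries an active Notch2 fragment, 7 genes had an unadjusted p below 0.05: Mcm2, Mcm4, Mcm5, Mcm6, Mcm7, Cdc45 and Rrm2. Mcm7 read 7.35, 7.03 and 7.13 in pl2 and 7.57, 8.15 and 7.51 in this group, without overlap (0.57 ± 0.18; limma, adjusted p = 0.176). Mcm2 read 6.20, 6.25 and 6.50 against 6.99, 7.43 and 6.76, also without overlap (0.75 ± 0.25; limma, adjusted p = 0.191). All 9 licensing and fork genes were above 0, with a median of 0.513, while the mitotic kinases, checkpoint and passenger genes had a median of 0.049 and 4 of 8 above 0. Array 3 of this group stood apart in intestinal transcripts, with a mean of 9.74 against 5.01 and 5.22 on the others. Without it and the other arrays high in liver or gut markers these medians were 0.718 and 0.199, with none of the 38 called. With all arrays, the licensing and fork median was also above the mitotic kinase, checkpoint and passenger median in each other transgenic group compared with MRI pl2. It was 0.461 against 0.074 in pL2_Dclk_Notch2fl_fl, 0.36 against 0.108 in pl2_FXR and 0.382 against 0.311 in pL2_Dclk_Notch2IC_LacZ. Mean signal of the licensing and fork genes was lower in MRI pl2 (6.64) than in any other transgenic group. The part of this shared control was not tested.

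In pL2_Lgr5_Notch1fl_fl (0.144% of all genes called) Mcm2, Mcm4, Mcm5, Mcm6 and Mcm7 had an unadjusted p below 0.05, from 0.45 for Mcm7 (limma, adjusted p = 0.244) to 0.67 for Mcm5 (limma, adjusted p = 0.303). All 9 licensing and fork genes were above 0 (median 0.451), and 1 of the 8 mitotic kinases, checkpoint and passenger genes was (median -0.323), as was 1 of 8 spindle genes (median -0.319), where the median over all genes was -0.08. Arrays 2 and 3 of this group stood apart in liver and intestinal transcripts, with a hepatocyte mean of 10.93 and an intestinal mean of 9.19, and array 1 was the one left when both were set aside. Without these and the other arrays high in liver or gut markers the median of the licensing and fork genes was 0.779 and that of the mitotic kinases, checkpoint and passenger genes changed sign, to 0.053 with 5 of 8 above 0, as did that of the spindle genes (0.037). None of the 38 was called then. In pL2_Lgr5_Notch2fl_fl (0.0525%) no gene had an unadjusted p below 0.05 and the median was 0.197; Mcm7 (0.31, 95% interval -0.05 to 0.67) and Mki67 (0.54, -0.16 to 1.24) came first. Set against each other, active and floxed Notch2 in Lgr5 cells differed in none of the 38 (0.0722%), with Pcna (0.52 ± 0.21; limma, adjusted p = 0.616) and Mcm2 (0.55 ± 0.25) first; these were the 2 with an unadjusted p below 0.05.

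No gene of the 38 was called in the 3 Dclk groups against the same pl2 arrays, which themselves lay low among the transgenic groups. In pL2_Dclk_Notch2IC_LacZ (0.0197% of all genes called) 37 of 38 genes were above 0, with a median of 0.414 against 0.013 over all genes. Mki67 read 7.80, 7.53 and 8.07 in pl2 and 8.76, 8.67 and 8.58 here, with every array above the pl2 range (0.87 ± 0.35; limma, adjusted p = 0.639). Cenpe, the kinetochore motor, read 5.82, 5.87 and 5.88 against 6.66, 6.83 and 6.29 (0.74; limma, adjusted p = 0.67). In pL2_Dclk_Notch2fl_fl (0.256%) Cdc45 read 5.29, 4.94 and 4.87 against 5.50, 5.60 and 5.81, without overlap (0.61 ± 0.20; limma, adjusted p = 0.172), and Mcm5 differed by 0.75 (limma, adjusted p = 0.274). Array 1 of that group had an intestinal mean of 7.94, just under the limit of 8, against 4.54 and 4.72 on the others; without it Cdc45 differed by 0.67 (limma, adjusted p = 0.306) and Mcm5 by 0.77 (0.477). In pL2_Dclk_Notch1fl_fl (0%) Rrm1 differed by 0.63 and Mcm5 by 0.74 (limma, adjusted p = 0.37 for each). Array 2 of that group had an intestinal mean of 8.41, against 4.42 and 4.14 on the others, and its highest Mcm5 (8.05 against 7.49 and 7.65). Without it and the other arrays high in liver or gut markers the licensing and fork median was 0.231, against 0.414 with all arrays. An unadjusted p below 0.05 was reached by 6, 4 and 5 genes in the 3 Dclk groups, in the order given. With array weights 15, 13 and 8 genes were called, and these counts too have no share of all genes beside them.

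Active against floxed Notch2 in Dclk1 cells gave no call (0.0328% of all genes), with Kif23 first (0.71 ± 0.30; limma, adjusted p = 0.929), the one with an unadjusted p below 0.05, and Cenpe next (0.54); without pL2_Dclk_Notch2fl_fl array 1 these were 0.42 and 0.19. The floxed Notch1 lines against the floxed Notch2 lines gave none either (0.0722%), with Nusap1 (-0.35) and Cdca3 (-0.35) first, a median of -0.089 and no unadjusted p below 0.05. Nor did the 3 Dclk groups against the 3 Lgr5 groups (0.945%), where 32 of 38 genes were above 0 and Nusap1, a spindle protein, led (0.34, 95% interval 0.01 to 0.67; limma, adjusted p = 0.305). Of the 9 arrays with high liver or gut markers, 4 belong to the Lgr5 groups and 1 to a Dclk group. Without these arrays 26 of 38 genes were above 0 in the Dclk against Lgr5 comparison. Of the licensing and fork genes 1 of 9 was then above 0 (median -0.18), against 5 of 9 with all arrays. The median of the floxed Notch1 against the floxed Notch2 lines was then 0.037.

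**Figure D5:**
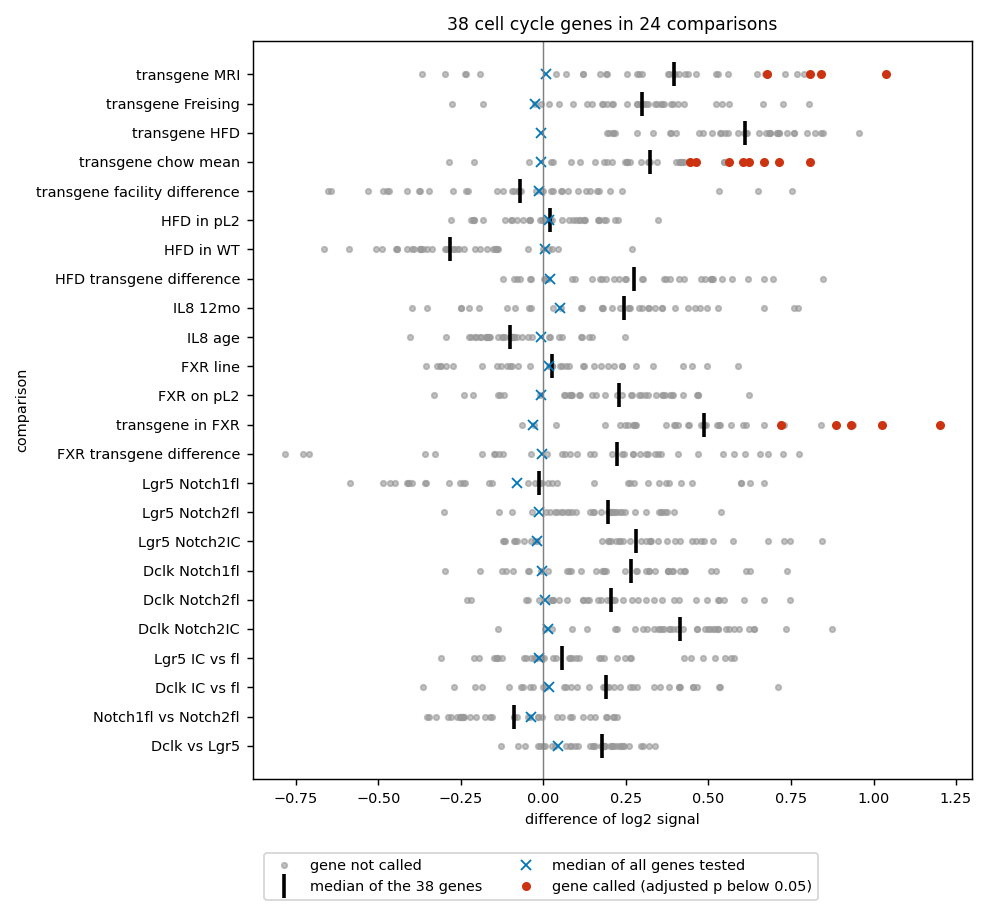
Difference of log2 signal of each of the 38 cell cycle genes (points, red where called at an adjusted p below 0.05) in 24 comparisons, with the median of the 38 genes (black line) and of all 15242 genes tested (blue cross). Each row is one group or pair of groups against its control as described in the text, and rows ending in difference are interactions. Red points occur in the rows of the transgene at the MRI facility, of the chow mean and of the FXR background.

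The cell cycle genes varied together between arrays. Over the 48 arrays the median Pearson correlation of the 703 pairs was 0.66, from -0.15 to 0.90, and after removal of group means it was 0.64, so the common variation was present among arrays of the same group. All genes on an array share its normalisation and its mix of cells. Within the licensing and fork genes the median was 0.67, within the 19 genes of the mitotic kinase, spindle and ubiquitin roles 0.79, and between these sets 0.46. Tpx2, a spindle assembly factor, followed the mean of the other genes most closely (r = 0.94), then Bub1b and Top2a (0.92 each). Pcna followed it least (0.19), with Tyms (0.52), Cdc6 (0.53) and Mcm2 (0.57) next.

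Outside the list, the genes whose values over the 48 arrays were most like the mean of the 38 were Kif18b and Ncaph (r = 0.92 each), Pole (0.919), Dlgap5 (0.917) and Kntc1 (0.902), then Ticrr, Pclaf, Cip2a, Cep55 and Incenp (0.880 to 0.889). Kif18b is a mitotic kinesin, Ncaph a condensin subunit, Pole the catalytic subunit of DNA polymerase epsilon and Kntc1 a kinetochore protein.

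Other cell cycle genes were counted by list for the mean of both chow comparisons, where 21.9% of all genes were called. Of 40 further G2 and M phase genes 8 rose and none fell, led by Troap (0.73 ± 0.16; limma, adjusted p = 0.00167) and Tacc3 (0.76 ± 0.20; limma, adjusted p = 0.00558), both spindle proteins; their median was 0.381. Of 27 further S phase genes 3 rose, Tk1 (thymidine kinase, 0.56), Brca1 (0.58) and Brca2 (0.47), with a median of 0.133. Of 15 E2F and DREAM genes 5 rose, among them E2f7 (0.73) and Tfdp1 (0.42), and E2f6 fell by 0.39. Of 11 G1 cyclins and kinases Skp2 (0.56) and Cdk6 (0.60) rose, and Ccnd1, Ccnd2 and Myc were not called, at 0.11, -0.02 and 0.45. The 15 cell cycle inhibitors and p53 targets split, with 3 higher, among them Rbl1 (0.55), and 3 lower, among them Ccng1 (-0.49) and Cdkn1c (-0.63). Cdkn1a (p21) was at 0.47 (limma, adjusted p = 0.0522), with 0.93 at the MRI facility and 0.02 on Freising chow. Without the arrays high in liver transcripts 1148 of all 15242 genes tested rose in the chow mean and 1652 fell. Of the 40 G2 and M phase genes 2 then rose, Troap and Tacc3, and of the 27 S phase genes none did. Of the 15 E2F and DREAM genes 2 rose, and of the 11 G1 genes 1, Skp2. Of the 15 inhibitors and p53 targets 3 rose and 2 fell.

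In the FXR background, where 10.1% of all genes were called and 5.15% were higher, 4 of the 40 further G2 and M phase genes rose with the transgene, with Kif15 (1.34; limma, adjusted p = 0.0142) and Cdca2 (0.92; limma, adjusted p = 0.0159) first, and 1 of 27 S phase genes, Brca1 (1.24 ± 0.28; limma, adjusted p = 0.00424). There Cdkn1c fell by 1.31 and Cdkn2b by 0.83 on the log2 scale, while Rbl1 (0.80), Tfdp1 (0.75) and Cdk6 (0.81) rose. Without pl2_FXR array 3 and the other arrays high in liver or gut markers, Brca1, Tfdp1, Cdk6 and Cdkn2b of the named genes were still called. Of all 15242 genes tested 665 were then higher and 442 lower. Under IL8 at 12 months Gins4, a subunit of the replicative helicase, rose (0.64 ± 0.14; limma, adjusted p = 0.011). The transgene effect differed between facilities for Smc4, a condensin subunit (0.95 higher at Freising; limma, adjusted p = 0.0405), and for Btg2 (0.90 lower there, a difference of -0.90; limma, adjusted p = 0.0434). Neither these nor Gins4 were called without the arrays high in liver or gut markers. At the MRI facility alone 23% of all genes were called and 10.3% were higher. There 17 of the 108 listed genes rose and 4 fell. Without the same arrays 3 of the inhibitors and p53 targets and 2 of the E2F and DREAM genes rose and none fell. Of all 15242 genes tested 857 then rose and 1128 fell. No gene of these lists was called in the remaining comparisons by the same fit.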

How the data were processed

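RNA of SCJ and cardia tissue was measured on Affymetrix arrays, 3 in each of 16 groups. The values are log2 signals that the authors made with Affymetrix Expression Console and RMA, per the submitters' processing notes and the labels' protocols; the version and genome build are not given in the sources used here. RMA sets all arrays to one distribution, so differences are relative to the other transcripts of the sample, and differences of dim probe sets are compressed. Gene names came from the platform annotation: of 34390 entries 23521 had 1 symbol, 1814 several and 9055 none. Each gene was read from its brightest entry with 1 symbol, and genes above the array median on at least 3 arrays were kept. Array signal has no read depth, and the number of arrays limits precision.

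limma 3.58.1 (R 4.3.3) fitted one mean per group to the 48 arrays (lmFit, contrasts, eBayes; 32 residual degrees of freedom), with two-sided p-values adjusted by Benjamini-Hochberg over 15242 genes; called means an adjusted p below 0.05, and intervals are 95%. Differences are of log2 signal. The procedure was tested on simulated data: in the mean of both chow comparisons a log2 change of 1 was called in 79% of the altered genes and one of 0.5 in 33%. The shares were 59% and 12% for MRI chow alone, and for the difference between the FXR and WT backgrounds 20% and 1%. In each run 100 genes of 15242 were altered at each size, with noise drawn independently for each gene. The adjusted p of a gene depends on how many others differ. These shares therefore need not hold in the real MRI chow comparison and chow mean, where 23% and 21.9% of genes were called.

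Mki67, Top2a, Cdk1 and Mcm2 were always to be named, with Ccnb1 had it been measured; in each comparison up to 6 called genes with the smallest adjusted p, or, with none called, the 2 with the smallest p; from each pathway list up to 2 called genes; and the 10 other genes most like the mean of the list. Further genes named in the text were chosen after their values were seen. The members, pathway lists and marker lists were chosen with earlier results of these data known. Alternatives were no filter, a stricter filter (24 arrays), cyclic loess, averaging each gene's entries, trended and robust variance, array weights, the compared groups alone, age as a covariate and leaving out each array. Leaving out 9 arrays whose mean of hepatocyte or intestinal markers was above 8, and the mean of 4 backgrounds, were added after seeing the data.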

Additional observations from a re-analysis of the deposited data

How the results depend on the processing

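No paired analysis was possible because the sample titles carry running numbers and no replicate number shared between groups. Of the medians over the 38 genes, 183 of 186 stayed within the replicate SD when 1 array was left out, and 202 of 203 did under the other settings. That SD, between arrays of the mean of the 38 genes, was 0.29, as large as several of the medians, so a median could shrink strongly within it. Without the arrays high in liver transcripts the median fell to 0.125 at the MRI facility and to 0.179 in the chow mean. Some small medians still changed sign without the 9 arrays that had high liver or gut markers. Among them were pl2_FXR against MRI pl2 (then -0.014), FXR against MRI WT (-0.098) and the floxed Notch1 against the floxed Notch2 lines (0.037). Counts of called genes moved as well. Leaving out 1 array gave 0 to 4 genes for the transgene at the MRI facility, 0 to 6 under HFD, 1 to 9 for the mean of both chow comparisons, 0 to 10 in the FXR background and 9 to 26 for any difference between groups, and 0 in each of the other 20 comparisons. No share of all genes called is given beside these counts. Of values for single genes, 84 of 474 lost their call without 1 array and 2 gained one. Without the 9 arrays that had high liver or gut markers, chosen after seeing the data, the counts were 0 at the MRI facility, 1 for the chow mean, 0 in the FXR background and 7 for any group difference. Of all 15242 genes, 857 were then higher and 1128 lower at the MRI facility. In the chow mean these counts were 1148 and 1652, and in the FXR background 665 and 442. In the FXR background the count was 2 with no filter and 0 with the compared groups fitted alone.

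Array weights (0.19 to 5.72; the estimation stopped before its tolerance was met) moved most counts: to 10 at the MRI facility, 3 on Freising chow, 20 under HFD, 2 for the facility difference, 1 for HFD in WT, 11 for IL8 at 12 months, 1 for FXR on pl2 and 1 for the transgene in the FXR background. They gave 6, 2 and 4 for Lgr5 with Notch1fl, Notch2fl and Notch2IC, 8, 13 and 15 for the same Dclk groups, and 37 for any group difference. The mean of 4 backgrounds, added after seeing the data, called 25. The cause of the shifts under array weights was not tested. The share of all genes called under these weights is not given, so the weighted counts cannot be set against a background. With 3 arrays a group, a change of 0.5 on the log2 scale was mostly below what a single comparison could call in simulated data. Few genes were altered in those data, so this need not hold where many genes differ.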
